A study of Rattus norvegicus with 9 samples.

Results

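The mitochondrial solute carriers of the SLC25 family were followed in rat bone marrow-derived dendritic cells given lipopolysaccharide (LPS), with or without extracellular vesicles (EVs). The 44 genes were taken by name, as the rows of the deposited table whose symbol begins with Slc25a and a number, leaving out 1 further row of that name and pseudogenes, out of 20442 genes in all. Of these 44 genes 31 were abundant enough to test.

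The cells were primary and wild type, grown from marrow in 10% serum with GM-CSF and IL-4 at 20 ng/mL each, the cytokines that turn marrow precursors into dendritic cells. LPS+EVs cultures (n = 3) received LPS together with vesicles shed by ASCs. LPS cultures (n = 3) received LPS, the endotoxin sensed by Toll-like receptor 4, and Control cultures (n = 3) received neither LPS nor vesicles. The protocol gives LPS at 1 µg/mL for 24 h. It also lists 50 ng/mL of something it does not name, and which groups received it is not known here. The vesicle dose is not known here either. Replicates are labelled biological without naming animals, and p-values measure only the spread between these cultures.

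Most carriers of this family sit in the inner membrane of the mitochondrion, which small molecules do not cross unaided. Each one exchanges or imports particular substrates: ADP for ATP, phosphate, the acids of the citric acid cycle, amino acids, nucleotides, cofactors or iron. In dendritic cells and macrophages exposed to LPS, energy supply is known to move from respiration toward glycolysis, and citrate and succinate leave the mitochondrion through such carriers.

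Libraries held 32.17 to 39.43 M reads assigned to genes. Levels are given as FPKM, counts of fragments scaled to gene length and library depth, so that genes can be compared per length. A gene 1 kb long with 3 reads would stand at 0.0761 to 0.0933 FPKM. The libraries numbered 2 stood apart within each group on the second principal component (21% of the variance). They scored -35.9 in LPS+EVs, -41.1 in LPS and -20.9 in Control, and the other libraries scored 1.5 to 33.9. Cd74, the invariant chain that accompanies MHC class II molecules, was at 6102 FPKM in LPS+EVs, 5855 FPKM in LPS and 6137 FPKM in Control in those 3 libraries, and between 939 and 2550.3 FPKM elsewhere. Itgax, the integrin CD11c that marks dendritic cells, was present in all libraries at 29.8 to 52 FPKM, while the dendritic cell growth factor receptor Flt3 did not exceed 0.108 FPKM. Values without the libraries numbered 2 are given beside the calls of carriers and for a part of the other carriers. Where none is given, a difference may have moved without those libraries too.

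Promoter sequences are shown for the 3 carriers of ATP synthesis, Slc25a5, Slc25a3 and Slc25a4, and for Slc25a13. Each was lower in LPS than in Control. Slc25a39, which was lower too, is not shown. They are the 250 bases before each annotated start, from RefSeq on build GRCr8, whereas the expression data rest on mRatBN7.2. Capitals mark GC boxes, spelled GGGCGG. They also mark CCAAT boxes, named by their letters, and the core of ETS sites, which reads CCGGAAG. Each was sought on either strand.
Slc25a5, chrX:120897366-120897615, + strand: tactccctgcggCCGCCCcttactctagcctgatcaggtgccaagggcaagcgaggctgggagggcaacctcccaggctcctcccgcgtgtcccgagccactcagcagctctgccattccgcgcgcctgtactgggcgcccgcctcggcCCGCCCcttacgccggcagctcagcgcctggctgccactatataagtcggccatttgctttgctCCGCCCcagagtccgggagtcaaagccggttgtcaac
Slc25a3, chr7:27506628-27506877, - strand: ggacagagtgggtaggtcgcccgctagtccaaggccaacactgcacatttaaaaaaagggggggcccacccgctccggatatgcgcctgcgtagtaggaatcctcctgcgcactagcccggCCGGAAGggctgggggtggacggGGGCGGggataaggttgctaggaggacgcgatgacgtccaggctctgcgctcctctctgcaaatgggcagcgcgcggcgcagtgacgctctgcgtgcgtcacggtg
Slc25a4, chr16:52805271-52805520, + strand: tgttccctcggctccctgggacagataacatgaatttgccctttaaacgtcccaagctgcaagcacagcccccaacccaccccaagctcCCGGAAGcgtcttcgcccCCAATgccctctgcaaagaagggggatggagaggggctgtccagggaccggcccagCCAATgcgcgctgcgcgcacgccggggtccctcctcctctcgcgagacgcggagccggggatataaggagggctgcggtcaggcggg
Slc25a13, chr4:35328361-35328610, - strand: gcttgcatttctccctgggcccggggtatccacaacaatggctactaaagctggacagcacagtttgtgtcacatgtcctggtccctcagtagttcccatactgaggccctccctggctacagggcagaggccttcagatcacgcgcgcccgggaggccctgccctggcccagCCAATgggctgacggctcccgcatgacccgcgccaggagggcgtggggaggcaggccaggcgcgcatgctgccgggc

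The 4 windows were alike in base composition, with 65.2% to 66.8% G and C, and differed in their motifs. Slc25a5 held 3 GC boxes and no CCAAT box, Slc25a3 held 1 GC box and 1 ETS core, Slc25a4 held 2 CCAAT boxes and 1 ETS core, and Slc25a13 held 1 CCAAT box. A window was at hand for 35 of the 44 carriers. GC boxes were found in 57.1% of these 35 windows and in 40.3% of the windows of 19005 protein-coding genes, and CCAAT boxes in 57.1% and 35.5%. ETS cores were found in 14.3% and 9.5%, E-boxes (CACGTG) in 5.7% and 6.4%, and motifs of estrogen-related receptors (AAGGTCA) in 2.9% and 3.2%. An NRF1 site was in none of the 35 windows and in 5.4% of all, and an NF-kB site in none and in 1.3% of all. Both strands were searched, and the marked matches do not overlap. Such matches describe letters in these windows and no binding.

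The comparison of LPS+EVs with LPS asks whether vesicles changed the carriers in cells already exposed to endotoxin. No carrier passed the threshold by limma (0 of 31, at an adjusted p under 0.05), nor did any of the 11141 genes tested (0%). With the replicate number as a block the counts were also 0 of 31 and 0%, and without the libraries numbered 2 no carrier and no gene passed. At an unadjusted p under 0.05 there were 2 carriers of 31, beside 2.65% of all genes. In no carrier did the LPS+EVs libraries lie wholly above or wholly below the LPS libraries, which happened for 3.14% and 3.48% of all genes.

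Of the 4 carriers with the highest levels in treated cells, none differed by more than 0.11 between LPS+EVs and LPS with all 9 libraries. Slc25a5 differed by 0.00 on the log2(FPKM + 1) scale (95% interval -0.23 to 0.24) and Slc25a3 by 0.03 (-0.19 to 0.24). Slc25a37 differed by 0.10 (-0.28 to 0.48) and Slc25a4 by 0.11 (-0.22 to 0.44). They were at -0.02, 0.05, 0.14 and 0.18 without the libraries numbered 2. Slc25a11 differed by 0.32 (-0.08 to 0.71) and Slc25a24 by -0.55 (-1.26 to 0.15), or by 0.46 and -0.76 without those libraries. For 26 of the 31 carriers the interval lay within -1 to 1, where 1 stands for a 2-fold difference on this scale. The exceptions were Slc25a24, Slc25a45, Slc25a32, Slc25a46 and Slc25a44, with lower bounds of -1.26, -1.14, -1.08, -1.05 and -1.04.

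The pair at an unadjusted p under 0.05 was Slc25a46 and Slc25a32. Slc25a46, an outer membrane protein that acts in the shape and division of mitochondria, had 5.12, 4.65 and 6.19 FPKM in LPS+EVs, against 8.7, 5.83 and 11.4 FPKM in LPS and 11.6, 12.3 and 12.4 FPKM in Control. Without regard to replicate number, the vesicle-treated libraries overlapped those with LPS alone in a single place, where 6.19 FPKM stood above 5.83 FPKM. By number, each LPS+EVs library was below its LPS library. The difference from LPS was -0.57 (SE 0.21, unadjusted p = 0.0237, adjusted p = 0.999). Slc25a32, which carries folate and FAD, had 2.98, 1.87 and 2.43 FPKM in LPS+EVs, against 4.59, 2.51 and 5.37 FPKM in LPS and 4.56, 4.05 and 4.47 FPKM in Control. Its difference from LPS was -0.56 (SE 0.23, unadjusted p = 0.0389, adjusted p = 0.999), and again each LPS+EVs library was below the LPS library of its number. With the replicate block Slc25a46 and Slc25a32 each had an adjusted p of 0.776 by limma. Among carriers with higher values, Slc25a10, which exchanges malate or succinate for phosphate, had the largest difference at 0.41 (95% interval -0.16 to 0.98). With the libraries numbered 2 left out, Slc25a46 was at -0.72, Slc25a32 at -0.69 and Slc25a10 at 0.61, and none of them passed (adjusted p = 0.28, 0.28 and 0.371).

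**Figure D1:**
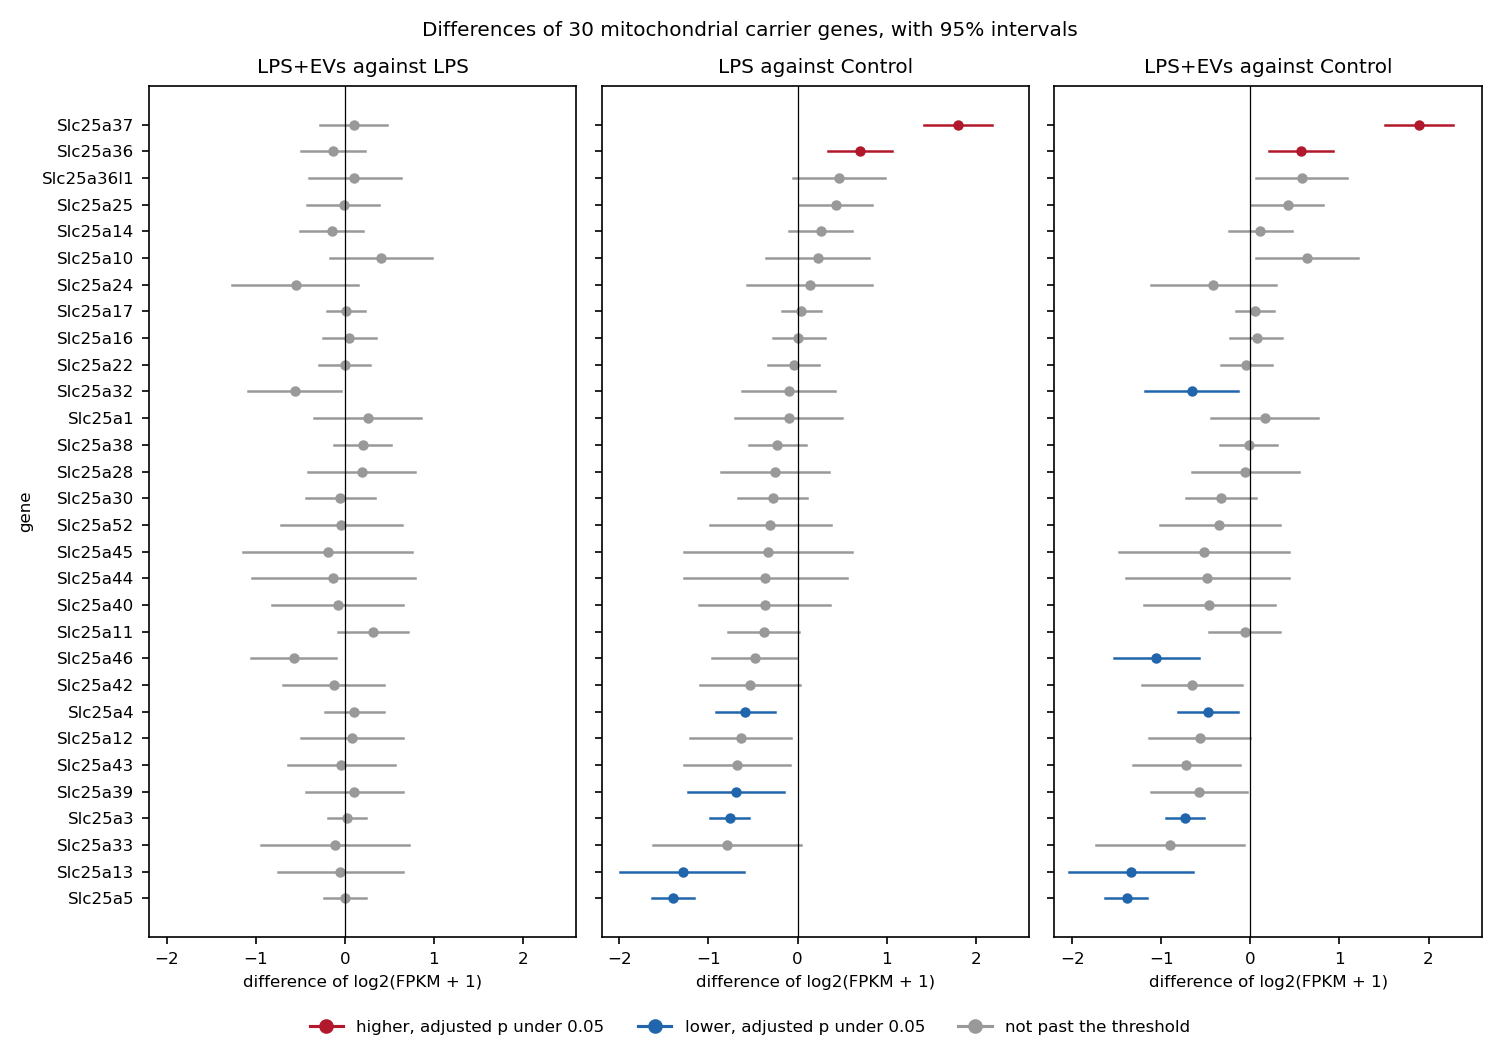
Differences of log2(FPKM + 1) for 30 of the 31 tested carriers in each comparison, with points for the estimate and lines for the 95% interval from limma. No point is coloured for LPS+EVs against LPS, while 7 are for LPS against Control and 8 for LPS+EVs against Control, with Slc25a37 farthest to the right and Slc25a5 and Slc25a13 farthest to the left.

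The comparison of LPS with Control gives the response of the carriers to endotoxin, together with whatever else of the protocol those cultures received. In LPS 5 of 31 carriers fell (Slc25a5, Slc25a13, Slc25a3, Slc25a39 and Slc25a4), where 28.7% of all genes tested fell, and 2 of 31 rose (Slc25a37 and Slc25a36), where 12.3% of all genes rose. The carriers called made up 22.6% of the family, and 41% of all genes were called. The groups did not overlap for 10 carriers that were lower and 4 that were higher in LPS, beside 37.6% and 17.5% of all genes. The median difference of the 31 carriers was -0.31, and that of all genes -0.19.

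Dividing each library by its median ratio to the others moved the median of all genes by 0.19 toward higher values. Under that scaling the median carrier was at -0.15. The split of all calls was 1368 higher and 3201 lower as deposited and 1895 higher and 2307 lower after scaling. Of the carriers 3 fell and 3 rose after scaling, where 20.8% and 17% of all genes did. With the replicate number as a block, 11 carriers fell and 3 rose, where 35.5% and 17.2% of all genes did. With both the block and that scaling, 4 fell and 3 rose, where 26% and 24.2% of all genes did. Without the libraries numbered 2, 8 fell and 4 rose, where 26.8% and 16.3% of all genes did.

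The carriers that serve ATP synthesis were the most abundant of the family. All 3 that could be tested fell in LPS, where 28.7% of all genes did. They export ATP in exchange for ADP (Slc25a5 and Slc25a4, the adenine nucleotide translocases) or import the phosphate from which ATP is made (Slc25a3). Slc25a5, the form associated with dividing cells, fell most. It had 157, 183 and 174 FPKM in LPS+EVs, against 158, 176 and 178 FPKM in LPS and 466, 457 and 428 FPKM in Control. Every Control library was far above every treated library, and the treated groups lay on top of each other. The difference between LPS and Control was -1.40 (SE 0.10, adjusted p = 3.05e-05), and -1.41 without the libraries numbered 2 (adjusted p = 0.000499, range over its alternatives 2.97e-05 to 0.000657).

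Slc25a3 had 133, 148 and 149 FPKM in LPS+EVs, against 135, 151 and 136 FPKM in LPS and 242, 237 and 238 FPKM in Control. The 3 Control libraries were nearly alike and far above all treated libraries. LPS differed from Control by -0.76 (SE 0.10, adjusted p = 0.000504), and -0.82 without the libraries numbered 2 (adjusted p = 0.00222, range over its alternatives 0.000469 to 0.0211).

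Slc25a4, the form best known from heart and muscle, had 88.7, 111 and 101 FPKM in LPS+EVs, against 78.3, 113 and 89.1 FPKM in LPS and 142, 142 and 134 FPKM in Control. No treated library reached a Control library, and the number 2 library was highest in each treated group. The difference between LPS and Control was -0.59 (SE 0.15, adjusted p = 0.0129). The call ended with median-of-ratios scaling (difference -0.37, adjusted p = 0.196) and when the block by number was added to it (adjusted p = 0.0567, range over its alternatives 0.00306 to 0.196). Without the libraries numbered 2 it held at -0.72 (adjusted p = 0.00524).

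The balance of these translocases differed between the groups. Slc25a5 stood at 1.77, 1.66 and 1.72 times Slc25a4 in LPS+EVs, against 2.02, 1.56 and 2 times in LPS and 3.29, 3.22 and 3.19 times in Control. All Control ratios were above all treated ratios. Such ratios do not depend on how a library is scaled, but they were chosen after the values were seen and carry no test. A further translocase, Slc25a6, had at most 0.163 FPKM (8 reads) in any library. Reads from the closely related translocase genes and their pseudogenes could have been assigned to either copy, and the counting settings are not known here.

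**Figure D2:**
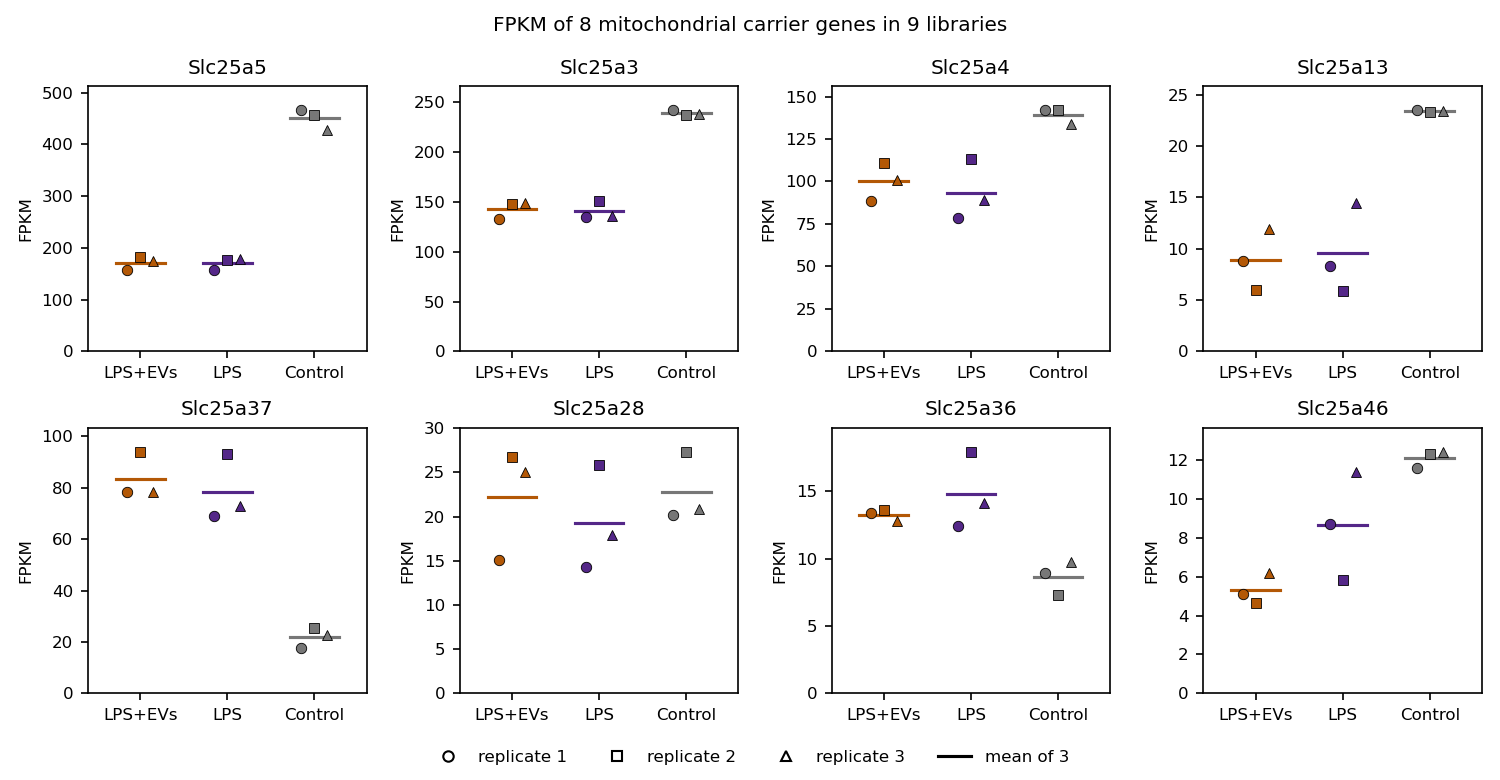
FPKM of 8 carriers in each library (symbols by replicate number, bars for the mean of 3). Slc25a5, Slc25a3, Slc25a4 and Slc25a13 are lower in all LPS+EVs and LPS libraries than in all Control libraries, Slc25a37 and Slc25a36 are higher, and the 3 groups overlap for Slc25a28.

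Summed over all 44 carriers, levels were 771, 849.9 and 850.2 FPKM in LPS+EVs, against 762, 847 and 791 FPKM in LPS and 1267, 1256 and 1196 FPKM in Control. Slc25a5, Slc25a3 and Slc25a4 made up 49.1% to 52% of that sum in LPS+EVs, 48.8% to 52% in LPS and 66.6% to 67.1% in Control. The other 41 genes together held 392, 408 and 426 FPKM in LPS+EVs, against 390.3, 407 and 387 FPKM in LPS and 417, 419 and 396 FPKM in Control. The sums of these 41 genes overlapped between the groups. They include Slc25a37, which ran the other way, and without it too the remaining 40 genes held 314, 314 and 348 FPKM in LPS+EVs, against 321, 314 and 314 FPKM in LPS and 399, 394 and 373 FPKM in Control. All treated libraries were then below all Control libraries in FPKM as deposited. Median-of-ratios scaling divides LPS replicate 2 by 0.836, LPS+EVs replicate 2 by 0.86 and the Control libraries by 1.08 to 1.13. After that scaling the sums of the 40 genes overlap between treated and Control libraries. The scaled sums over all 44 carriers stayed apart, at most 1013 in treated and at least 1072 in Control libraries. The sum over 40 genes was chosen after the values were seen, and these sums carry no test. In bulk RNA, fewer cells of a type and less RNA per cell cannot be told apart.

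**Figure D3:**
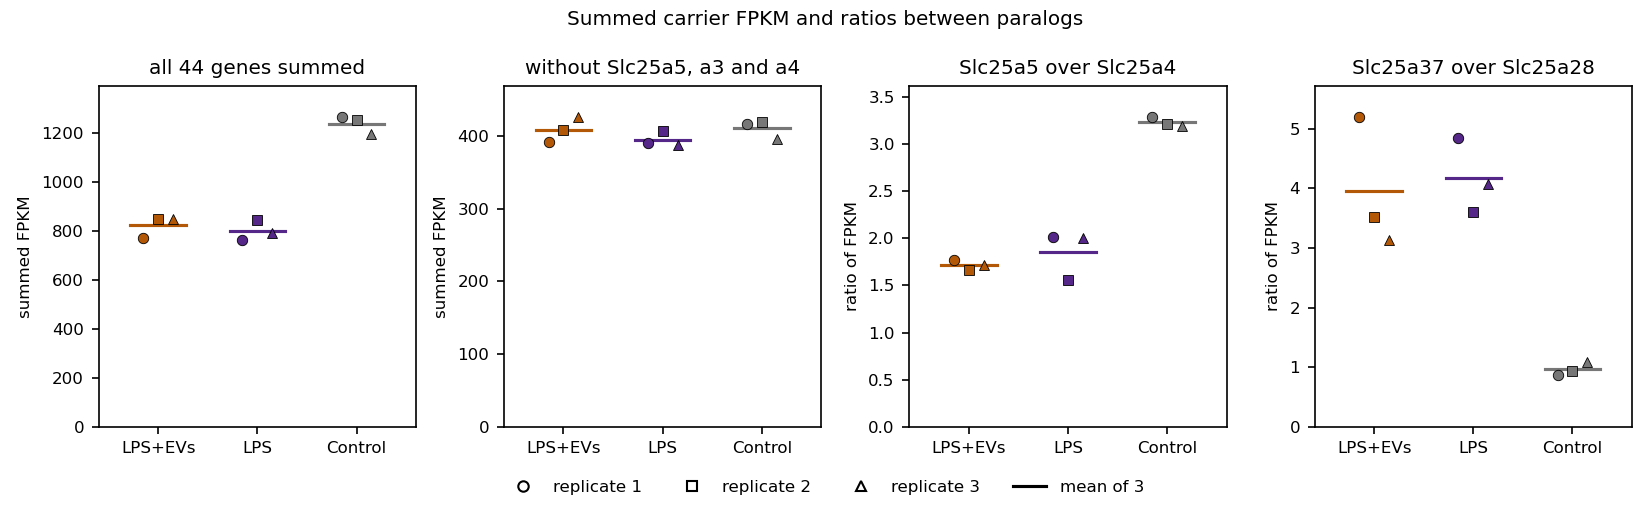
Summed FPKM of all 44 carriers and of the 41 without Slc25a5, Slc25a3 and Slc25a4, and ratios of FPKM between paralogs, in each library (bars for the mean of 3). The full sum is at most 850.2 FPKM in treated and at least 1196 FPKM in Control libraries, whereas the sum of the other 41 overlaps, and the Slc25a37 to Slc25a28 ratio is at least 3.14 in treated and at most 1.09 in Control libraries.

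The malate-aspartate shuttle passes reducing equivalents from cytosolic NADH into the mitochondrion. It uses an aspartate/glutamate carrier, Slc25a12 or Slc25a13, together with the oxoglutarate/malate carrier Slc25a11. In LPS, where 12.3% of all genes rose and 28.7% fell, none of the 6 carriers of the shuttle and the citric acid cycle rose and 1 fell. That gene was Slc25a13, known as citrin, at 8.82, 6 and 11.9 FPKM in LPS+EVs, against 8.34, 5.84 and 14.5 FPKM in LPS and 23.5, 23.3 and 23.4 FPKM in Control. Control libraries were nearly identical, and within each treated group the number 2 library was lowest and the number 3 library highest. LPS and Control differed by -1.29 (SE 0.31, adjusted p = 0.0104), and -1.03 without the libraries numbered 2 (adjusted p = 0.0177, range over its alternatives 0.00157 to 0.0377).

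Its paralog Slc25a12, known as aralar, had 7.52, 11.7 and 6.7 FPKM in LPS+EVs, against 7.74, 11.2 and 5.66 FPKM in LPS and 12.6, 14 and 12.2 FPKM in Control. All treated libraries were below all Control libraries, with the number 2 libraries nearest to Control. LPS stood apart from Control by -0.64 (SE 0.25, adjusted p = 0.0694). With the replicate block it passed (0.00947), without LPS replicate 2 (0.0181), without LPS+EVs replicate 2 (0.0454) and without the libraries numbered 2 (0.00898, range over its alternatives 0.00898 to 0.301). The pair thus ran opposite ways within the treated groups, where Slc25a13 was lowest and Slc25a12 highest in the library numbered 2.

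Slc25a11 had 72.4, 82.1 and 74.9 FPKM in LPS+EVs, against 59.5, 80 and 47.8 FPKM in LPS and 77.6, 86.8 and 75.5 FPKM in Control. LPS libraries 1 and 3 lay below all others. Between LPS and Control it differed by -0.38 (SE 0.17, adjusted p = 0.111), and it passed with the replicate block (0.0398), without the libraries numbered 2 (0.0215) and without LPS replicate 2 (0.0109, range over its alternatives 0.0109 to 0.612).

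Slc25a1, which exports citrate to the cytosol for lipid synthesis, had 19.4, 26.9 and 23.3 FPKM in LPS+EVs, against 18.5, 27.3 and 13.6 FPKM in LPS and 27.5, 17.1 and 18.2 FPKM in Control. The 3 groups overlapped, and the difference between LPS and Control was -0.10 (95% interval -0.70 to 0.50), or -0.47 without the libraries numbered 2 (adjusted p = 0.143). Slc25a10 had 7.57, 10.6 and 13.8 FPKM in LPS+EVs, against 5.41, 10.5 and 7.51 FPKM in LPS and 6.98, 5.77 and 6.25 FPKM in Control. LPS differed from Control by 0.23 for Slc25a10, or by -0.04 without the libraries numbered 2 (adjusted p = 0.497 and 0.91). Slc25a22, a glutamate carrier, was steady at 8.6, 8.85 and 10.5 FPKM in LPS+EVs, against 9.54, 8.93 and 9.44 FPKM in LPS and 9.22, 10.8 and 8.9 FPKM in Control. Its difference between LPS and Control was -0.04 (95% interval -0.33 to 0.24).

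Iron enters the mitochondrion through the mitoferrins, Slc25a37 (mitoferrin-1) and Slc25a28 (mitoferrin-2), where it is built into heme and iron-sulfur clusters. Slc25a37 rose more than any other carrier tested. It had 78.2, 93.9 and 78.4 FPKM in LPS+EVs, against 69.2, 93 and 72.9 FPKM in LPS and 17.7, 25.3 and 22.7 FPKM in Control. Every treated library was above every Control library, and the number 2 library was highest in each group. The difference between LPS and Control was 1.80 (SE 0.17, adjusted p = 0.000102), and 1.77 without the libraries numbered 2 (adjusted p = 0.00033, range over its alternatives 1.68e-05 to 0.00115).

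Slc25a28 had 15.1, 26.7 and 25 FPKM in LPS+EVs, against 14.3, 25.8 and 17.9 FPKM in LPS and 20.2, 27.3 and 20.9 FPKM in Control. The groups overlapped, with a difference between LPS and Control of -0.25 (95% interval -0.86 to 0.35). Slc25a37 stood at 5.2, 3.52 and 3.14 times Slc25a28 in LPS+EVs, against 4.85, 3.61 and 4.07 times in LPS and 0.874, 0.928 and 1.09 times in Control. The mitoferrins were thus at like levels in Control cells, and mitoferrin-1 was in excess in every treated library.

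Slc25a37 is best known from red cell precursors, and red cell markers moved with the groups. Of 11 erythroid markers 7 were in the table and 3 could be tested, of which 2 fell in LPS. Their summed level was 3.98 to 9.09 FPKM in LPS+EVs, 5.28 to 9.98 FPKM in LPS and 55.8 to 448 FPKM in Control, most of it the alpha globin Hba-a2. Alas2, the heme synthesis enzyme particular to red cells, was at 0 except for 0.014 FPKM in Control replicate 2, and Klf1, Epor and Ahsp stayed below 1 FPKM. The erythroid sum was thus lower in the groups with more Slc25a37. The 7 markers of dividing cells all fell in LPS, with sums of 6.12 to 7.96 FPKM in LPS+EVs, 5.11 to 7.1 FPKM in LPS and 280.1 to 334 FPKM in Control. These moved with the lower Slc25a5, and their part in that result was not tested. Markers of neutrophils and their precursors summed to 3.97 to 17.3 FPKM in LPS+EVs, 1.8 to 6.58 FPKM in LPS and 30.9 to 256 FPKM in Control (2 of 4 tested fell), with Mpo, Elane, Ltf and Prtn3 below 1 FPKM, and their part was not tested. In LPS against Control, 2 of 8 macrophage and monocyte markers rose and 4 fell, and 2 of 2 T and NK cell markers fell. Of 2 megakaryocyte markers 1 rose, and 0 of 4 stromal markers passed. Among dendritic cell markers 1 of 9 tested fell in the fit without the block. By replicate number, Cd74, RT1-Ba, RT1-Bb, RT1-Da, RT1-Db1 and Ciita were lower in each LPS library than in its Control library. Cd86 and Zbtb46 were higher in each, and Itgax was mixed. RT1-Da had 39, 935 and 82.5 FPKM in LPS, against 226, 1477 and 386 FPKM in Control. Of all genes 28.7% fell and 12.3% rose. Markers of B cells and of mast cells stayed below 1 FPKM.

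**Figure D4:**
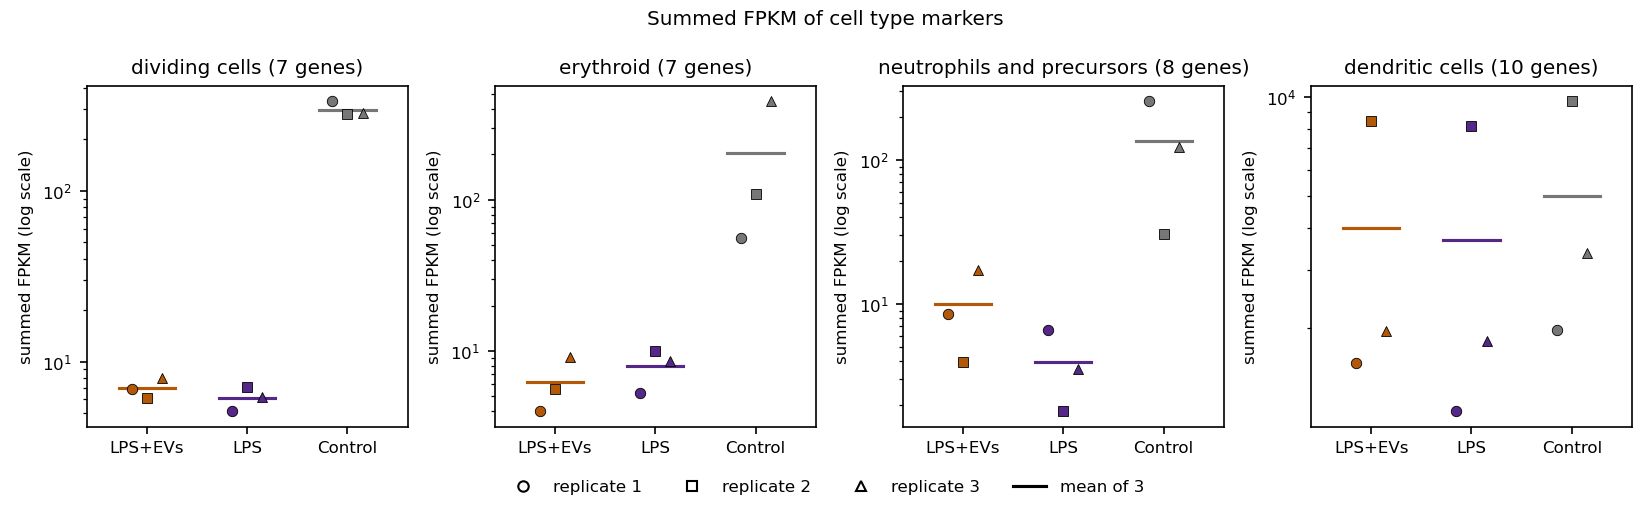
Summed FPKM (log scale) of the markers of dividing cells, erythroid cells, neutrophils and dendritic cells in each library (bars for the mean of 3). Dividing, erythroid and neutrophil markers are lower in all treated than in all Control libraries, whereas the dendritic cell sum is set apart by replicate number 2 in each group, at up to 9687 FPKM.

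Carriers of cofactors and nucleotides formed the largest group, with 10 of 11 tested. Of these 1 rose and 1 fell in LPS, where 12.3% and 28.7% of all genes did. The gene that rose was Slc25a36, which carries pyrimidine nucleotides needed for mitochondrial DNA and RNA. It had 13.4, 13.6 and 12.8 FPKM in LPS+EVs, against 12.4, 17.9 and 14.1 FPKM in LPS and 8.96, 7.28 and 9.74 FPKM in Control. All treated libraries were above all Control libraries. LPS exceeded Control by 0.70 (SE 0.16, adjusted p = 0.0081), and 0.46 without the libraries numbered 2 (adjusted p = 0.0284, range over its alternatives 0.00616 to 0.0316).

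Slc25a33, the other pyrimidine nucleotide carrier, went the other way, with 2.48, 1.56 and 4.83 FPKM in LPS+EVs, against 3.55, 1.45 and 4.87 FPKM in LPS and 5.7, 6.35 and 5.87 FPKM in Control. All treated libraries were below Control, with a wide spread among them. The difference between LPS and Control was -0.79 (SE 0.36, adjusted p = 0.114), and the block made it pass (0.0351, range over alternatives 0.0351 to 0.297). It was at -0.39 when the libraries numbered 2 were left out (adjusted p = 0.262). Slc25a36l1, named in the table as related to Slc25a36, was at 1.06 to 2.47 FPKM in LPS+EVs, 1.32 to 1.89 FPKM in LPS and 0.665 to 1.28 FPKM in Control, and reads shared between the pair could not be separated here. It did not pass for LPS against Control (0.47, adjusted p = 0.129). Slc25a52 and Slc25a16 did not pass either (-0.31 and 0.01, or -0.14 and -0.08 without the libraries numbered 2), the first at 0.263 FPKM in LPS+EVs replicate 2, 0.217 FPKM in LPS replicate 2 and 0.918 to 1.75 FPKM elsewhere.

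The gene that fell was Slc25a39, which imports glutathione, the thiol that protects against oxidation. It had 48.3, 33.8 and 47.9 FPKM in LPS+EVs, against 55, 29.4 and 38.2 FPKM in LPS and 74, 65 and 55.6 FPKM in Control. LPS replicate 1 came just below the lowest Control library. The difference between LPS and Control was -0.69 (SE 0.24, adjusted p = 0.0456), and the call held under 6 of 17 alternatives (range 0.00947 to 0.145). It ended without Control replicate 1, 2 or 3 (adjusted p = 0.145, 0.105 and 0.0632), LPS replicate 2 or 3 (0.115 and 0.0938), LPS+EVs replicate 1 or 3 (0.0608 and 0.058), and without the libraries numbered 2 (0.106). It also ended with median-of-ratios scaling (0.0766), with no filter (0.0891) and with the 6 compared libraries alone (0.0613). Its paralog Slc25a40 was at 2.21 to 3.82 FPKM in LPS+EVs, 2.16 to 5.3 FPKM in LPS and 3.03 to 7.1 FPKM in Control, with a difference of -0.37 between LPS and Control (95% interval -1.11 to 0.36). Without the libraries numbered 2 that difference was -0.88 and passed (adjusted p = 0.0392, range over its alternatives 0.0392 to 0.803).

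Slc25a42, a coenzyme A carrier, had 1.23, 0.448 and 1.24 FPKM in LPS+EVs, against 1.6, 0.504 and 1.39 FPKM in LPS and 2.18, 2.1 and 1.87 FPKM in Control. It did not pass for LPS against Control (adjusted p = 0.117) except with the replicate block (0.0399, range over its alternatives 0.0399 to 0.3), and was at -0.28 without the libraries numbered 2 (adjusted p = 0.183). Mcart1, an older symbol of the NAD carrier Slc25a51 and no member by its name in the table, had 19, 13.3 and 19.5 FPKM in LPS+EVs, against 19.4, 12.7 and 18.4 FPKM in LPS and 22.9, 20.6 and 22.8 FPKM in Control (LPS against Control -0.40, SE 0.19, adjusted p = 0.132).

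Among the remaining carriers none passed for LPS against Control as reported. Slc25a25, a calcium-regulated carrier of ATP-Mg and phosphate, had 6.14, 7.81 and 8.58 FPKM in LPS+EVs, against 7.16, 8.08 and 7.37 FPKM in LPS and 4.4, 6.94 and 4.92 FPKM in Control. Its difference of 0.43 between LPS and Control (adjusted p = 0.0842) passed with the replicate block (0.0382), without Control replicate 2 (0.0331), without the libraries numbered 2 (0.0421) and with median-of-ratios scaling (0.0439, or 0.00553 with the block added, range over its alternatives 0.00553 to 0.26). Slc25a17, the carrier of cofactors into peroxisomes, was steady. It stayed at 20.3 to 21.3 FPKM in LPS+EVs, 19.5 to 21.4 FPKM in LPS and 19.6 to 20.7 FPKM in Control, with a difference of 0.04 between LPS and Control (95% interval -0.17 to 0.26). Slc25a24, another calcium-regulated carrier of ATP-Mg and phosphate, had 18.2, 11.2 and 14.8 FPKM in LPS+EVs, against 24.8, 12.5 and 32.4 FPKM in LPS and 18.4, 19.8 and 20.6 FPKM in Control. LPS libraries lay on both sides of Control, and without the libraries numbered 2 Slc25a24 was higher in LPS than in Control (0.52, adjusted p = 0.0497, range over its alternatives 0.0497 to 0.934).

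Slc25a43, whose substrate is not established, had 6.64, 4.64 and 5.91 FPKM in LPS+EVs, against 7, 3.38 and 8.27 FPKM in LPS and 9.83, 9.81 and 10.4 FPKM in Control. All treated libraries were below Control, and its difference of -0.68 between LPS and Control (adjusted p = 0.0673) passed with the replicate block (0.0227) and without LPS replicate 3 (0.0272, range over its alternatives 0.0227 to 0.153). That difference was -0.37 without the libraries numbered 2 (adjusted p = 0.0762). Slc25a46 differed by -0.48 between LPS and Control (adjusted p = 0.0947), and passed with the replicate block (0.0416) and without LPS replicate 3 (0.022, range over its alternatives 0.022 to 0.279). It was at -0.24 without the libraries numbered 2 (adjusted p = 0.279). Of the amino acid carriers 3 of 8 were tested and none passed. They were the glycine carrier Slc25a38, the branched-chain amino acid carrier Slc25a44 and Slc25a45, with differences between LPS and Control of -0.36 to -0.23. Leaving out the libraries numbered 2 put them at -0.11, -0.02 and 0.18. Slc25a14 and Slc25a30, relatives of the uncoupling proteins, differed by 0.26 and -0.28 and did not pass. Slc25a14 was at 0.13 without the libraries numbered 2. Slc25a30 passed without the libraries numbered 2 (-0.39, adjusted p = 0.0442, range over its alternatives 0.0442 to 0.673).

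**Figure D5:**
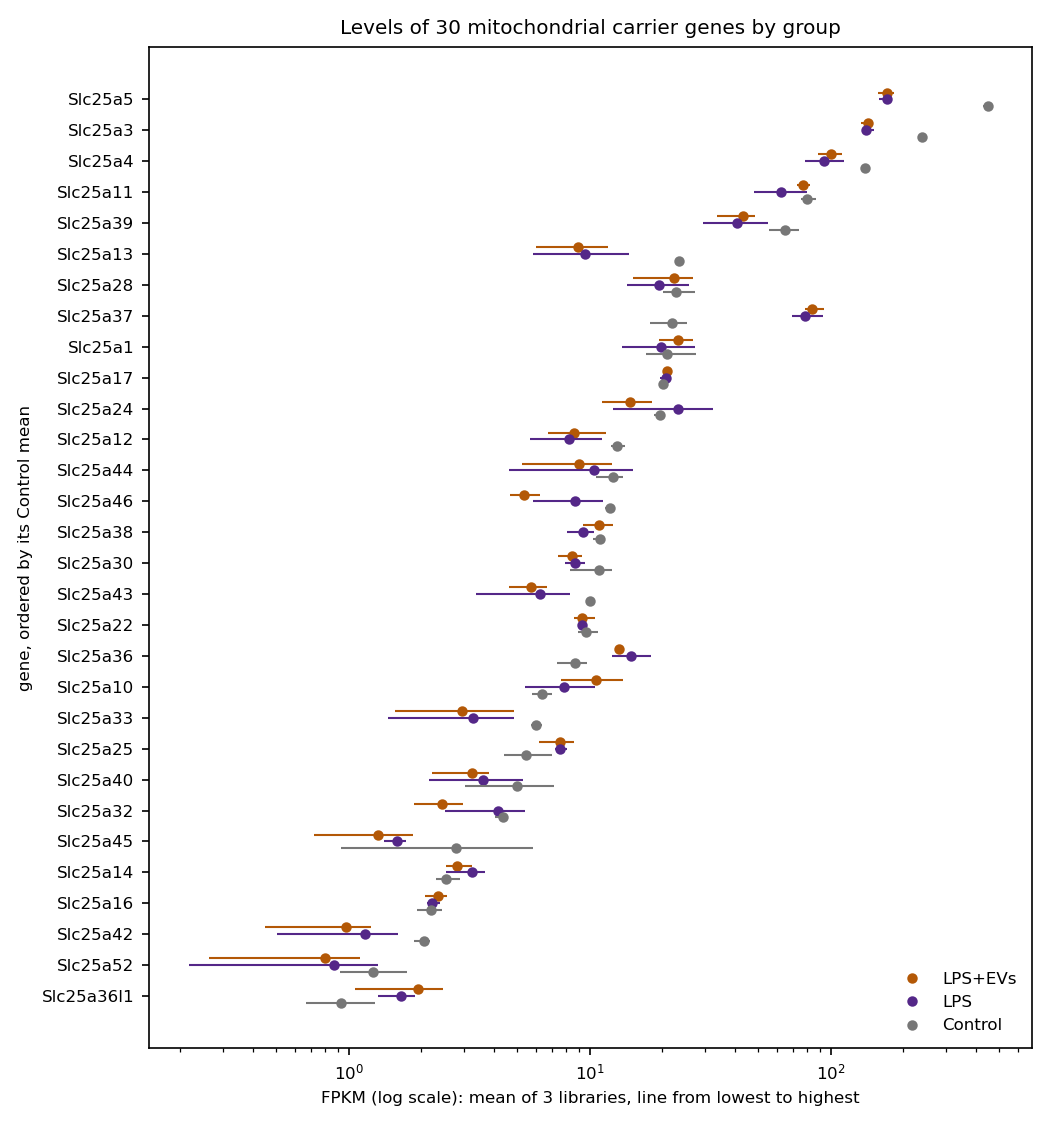
Levels of 30 of the 31 tested carriers on a log scale, as the mean of 3 libraries with a line from the lowest to the highest, ordered by the Control mean. Slc25a5, Slc25a3 and Slc25a4 lead in every group, Slc25a37 ranks 4th in LPS+EVs and LPS and 8th in Control, and Slc25a13 ranks 16th in LPS+EVs, 13th in LPS and 6th in Control.

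Slc25a5, Slc25a3 and Slc25a4 held the first 3 ranks in each group, and their libraries did not overlap with each other within any group. Below them the order was less sure, since in Control the ranges of Slc25a11 (75.5 to 86.8 FPKM) and Slc25a39 (55.6 to 74 FPKM) nearly met and those of Slc25a28, Slc25a37, Slc25a1 and Slc25a17 overlapped. In all, 27 carriers reached 1 FPKM in every library, and 10 reached 10 FPKM in every library.

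The comparison of LPS+EVs with Control shows which differences from Control cells were present when vesicles were given. This comparison shares its Control libraries with the comparison of LPS with Control, so the lists are not independent. In LPS+EVs 6 of 31 carriers fell, where 30.8% of all genes fell, and 2 of 31 rose, where 13.5% rose. The groups did not overlap for 12 carriers that were lower and 3 that were higher, beside 40.6% and 19.6% of all genes. With the replicate block 11 fell and 4 rose, where 37.4% and 17.8% of all genes did, and without the libraries numbered 2, 9 fell and 4 rose, where 29.9% and 16.7% did. With median-of-ratios scaling 4 carriers fell and 5 rose, where 22.3% and 18.7% of all genes did, and with the block added to it 8 fell and 5 rose, where 27.2% and 25.4% did. All genes split into 1505 higher and 3436 lower calls as deposited, and 2081 higher and 2484 lower with median-of-ratios scaling.

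Slc25a5 differed by -1.39 (SE 0.10, adjusted p = 3.08e-05), Slc25a13 by -1.34 (SE 0.31, adjusted p = 0.00801) and Slc25a3 by -0.73 (SE 0.10, adjusted p = 0.000611). Slc25a37 differed by 1.89 (SE 0.17, adjusted p = 7.75e-05). Without the libraries numbered 2 these were at -1.43, -1.12, -0.76 and 1.91, and each passed under all 17 alternatives. The values for LPS against Control were -1.40, -1.29, -0.76 and 1.80.

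Slc25a46 fell by 1.06 in LPS+EVs against Control (SE 0.21, adjusted p = 0.00429) and passed under all 17 alternatives, with a difference of -0.97 without the libraries numbered 2 (adjusted p = 0.00456, range over its alternatives 0.000663 to 0.0197). This call was absent for LPS against Control, where the difference was -0.48. The direct test between LPS+EVs and LPS did not pass, as given above, so the responses are not shown to differ.

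Slc25a32 fell by 0.66 (SE 0.23, adjusted p = 0.0451) and passed under 7 of 16 alternatives (range 0.00739 to 0.135). Its call ended without Control replicate 1, 2 or 3 (0.121, 0.0833 and 0.113), LPS replicate 1 (0.0589) or LPS+EVs replicate 1, 2 or 3 (0.0517, 0.135 and 0.0872), with median-of-ratios scaling (0.0632) and with no filter (0.0967). Without the libraries numbered 2 it held (-0.58, 0.0209).

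Slc25a4 fell by 0.48 (SE 0.15, adjusted p = 0.0276) and passed under 10 of 17 alternatives (range 0.00835 to 0.372). Its call ended without Control replicate 1, 2 or 3 (0.0822, 0.0743 and 0.0634), LPS+EVs replicate 1 or 3 (0.0936 and 0.0573), and with median-of-ratios scaling (0.372, or 0.166 with the block added). Slc25a36 rose by 0.57 (SE 0.16, adjusted p = 0.0179). Its call was lost without Control replicate 2 (0.064) and without LPS+EVs replicate 1 or 2 (0.0508 and 0.0523, range over its alternatives 0.00677 to 0.064). Without the libraries numbered 2 Slc25a4 was at -0.54 (adjusted p = 0.0138) and Slc25a36 at 0.45 (adjusted p = 0.0286).

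Slc25a39 did not pass in this comparison (-0.58, adjusted p = 0.0763), but passed with the replicate block (0.0184), with the 6 compared libraries alone (0.0317) and without LPS replicate 1 or 2 (0.0418 and 0.0371, range over its alternatives 0.0184 to 0.225). Slc25a10 stood higher by 0.63 (adjusted p = 0.0688) and passed with the replicate block (0.042), after median-of-ratios scaling (0.0434), and without LPS replicate 2 (0.0347) or LPS+EVs replicate 1 (0.0361, range over its alternatives 0.0193 to 0.203). Slc25a12, Slc25a33, Slc25a42 and Slc25a43 passed as lower with the replicate block (adjusted p = 0.0152, 0.0202, 0.017 and 0.017), and Slc25a25 as higher (0.041). As reported these had adjusted p of 0.0972, 0.0739, 0.0592, 0.0522 and 0.0878. Over their alternatives the ranges were 0.0123 to 0.396, 0.0202 to 0.22, 0.017 to 0.182, 0.00376 to 0.149 and 0.00522 to 0.267. When the libraries numbered 2 were left out, Slc25a12, Slc25a43 and Slc25a25 passed (-0.73, -0.61 and 0.55, adjusted p = 0.0123, 0.013 and 0.0392). Slc25a33, Slc25a42, Slc25a39 and Slc25a10 did not (-0.59, -0.43, -0.41 and 0.56, adjusted p = 0.105, 0.0536, 0.146 and 0.131). Slc25a36l1 and Slc25a30 did not pass as reported (adjusted p = 0.0656 and 0.146). Without those libraries they passed (0.79 and -0.43, adjusted p = 0.0187 and 0.0316).

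Of the 13 carriers that were not tested, 12 stayed below 1 FPKM in every library. The other one, Slc25a26, which imports the methyl donor S-adenosylmethionine, had 0.323, 0.0661 and 0.366 FPKM in LPS+EVs, against 0.497, 0.0281 and 0.499 FPKM in LPS and 1.01, 0.899 and 0.924 FPKM in Control. All treated libraries were below Control, and the number 2 libraries, with 21 reads in LPS+EVs and 9 in LPS, were lowest. Slc25a15, the ornithine carrier of the urea cycle, had 0.349, 0.0862 and 0.137 FPKM in LPS+EVs, against 0.333, 0.137 and 0.309 FPKM in LPS and 0.672, 0.618 and 0.679 FPKM in Control. Again no treated library reached a Control library.

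Slc25a23, a further ATP-Mg and phosphate carrier, had 0.144, 0.0436 and 0.135 FPKM in LPS+EVs, against 0.082, 0.129 and 0.154 FPKM in LPS and 0.693, 0.468 and 0.222 FPKM in Control. Fitted without a filter, Slc25a26, Slc25a15 and Slc25a23 were lower in LPS than in Control (adjusted p = 0.0465, 0.0206 and 0.0481). Slc25a27, a carrier related to the uncoupling proteins, was lower too, at -0.18 (adjusted p = 0.0449), with 12 to 71 reads in a library. Slc25a29, which carries basic amino acids, was at 0.471 to 0.963 FPKM in LPS+EVs, 0.365 to 0.898 FPKM in LPS and 0.177 to 0.375 FPKM in Control (adjusted p = 0.198 for LPS against Control, without a filter).

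Slc25a2, Slc25a34 and Slc25a35 reached at most 0.717, 0.78 and 0.978 FPKM, the 0.78 FPKM of Slc25a34 in LPS replicate 3. Slc25a48 reached 0.186 FPKM and Slc25a47 0.0837 FPKM. Slc25a53 had 1, 1 and 4 reads in 3 libraries and none elsewhere, and Slc25a54 had 1 read in Control replicate 3. At this depth these last genes were not detectable beyond a few reads.

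Other proteins of mitochondrial transport were counted from a list of 28 genes, of which 25 were tested. In LPS 10 fell and 1 rose against Control, where 28.7% and 12.3% of all genes did. In LPS+EVs 10 fell and 1 rose against Control, where 30.8% and 13.5% of all genes did, and none passed between LPS+EVs and LPS. The median difference of the 25 genes was -0.36 for LPS against Control, where that of all genes was -0.19. Ucp2, an uncoupling protein of the same carrier family under another name, had 70.7, 76.8 and 100.5 FPKM in LPS+EVs, against 52.6, 73.8 and 68.7 FPKM in LPS and 239.5, 275 and 241 FPKM in Control. It fell by 1.95 in LPS against Control (SE 0.17, adjusted p = 7.38e-05), more than any tested Slc25a gene.

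The rise on that list was Tspo, an outer membrane protein that binds cholesterol, with 289, 211 and 305 FPKM in LPS+EVs, against 294, 192 and 229 FPKM in LPS and 163, 101 and 119 FPKM in Control (LPS against Control 0.90, adjusted p = 0.0142). The outer membrane channel Vdac2 fell in LPS (-0.76, adjusted p = 0.000797), while Vdac1 and Vdac3 did not pass (0.20 and -0.08). The pyruvate carrier subunit Mpc2 fell (-0.55, adjusted p = 0.00483) and its partner Mpc1 did not pass (-0.13). Timm9, a chaperone that guides carrier proteins across the space between the membranes, fell (-1.48, adjusted p = 0.0155), as did Timm22 (-0.65, adjusted p = 0.00682), the channel that inserts them into the inner membrane, while Timm10, the partner of Timm9, did not pass (adjusted p = 0.0683).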

How the data were processed

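RNA of 9 libraries in 3 groups had been sequenced by the authors and deposited as 1 table of FPKM values per gene. Per the submitters' processing notes, fastp, HISAT2, HTSeq and R 3.2.0 were used with build mRatBN7.2. FPKM removes depth but not composition, so a few abundant genes can shift the others. Steps in the low FPKM values gave whole reads (within 0.002) for 20402 of 20442 genes, and from these the depth. Genes with at least 1 FPKM in 3 libraries (11141) were tested with limma 3.58.1 in R 4.3.3 on log2(FPKM + 1), with a trend, 1 mean per group and all 9 libraries in the fit. This scale understates the change of low genes. P-values are two-sided and Benjamini-Hochberg adjusted over all tested genes, with a threshold of 0.05, and ± values and SE refer to 3 libraries a group. Deviations from the group mean correlated at 0.28 to 0.86 between libraries of the same replicate number (9 pairs) and at -0.74 to 0.43 otherwise (18 pairs). The numbers were thus taken to pair the libraries, and a block by number was fitted as an alternative. Calls, SE, intervals and p-values given without naming the block come from the fit without it. Alternatives were other filters, another added value, median-of-ratios scaling and leaving libraries out. The code was tested on simulated data. Values by library are given for all carriers called and a panel of known ones. A few single genes that entered the fits, counts and sums are not reported here. The carriers and gene lists were chosen with earlier results of these data known.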

Additional observations from a re-analysis of the deposited data

How the results depend on the processing

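Between LPS+EVs and LPS no carrier passed under any alternative run, and leaving out single libraries gave 0 to 1 gene of all tested. For LPS against Control, 7 carriers were called as reported, 14 with the replicate block, 7 with that block and median-of-ratios scaling (4 lower and 3 higher), 12 without the libraries numbered 2, and 6 to 8 when single libraries were left out. All genes called numbered 4569, and 2775 to 4526 with single libraries left out. The lowest counts came without Control replicate 1 (2775) and Control replicate 3 (3006). For LPS+EVs against Control, 8 carriers were called as reported, 13 with the 6 compared libraries alone, 15 with the replicate block, 13 with that block and median-of-ratios scaling, and 13 without the libraries numbered 2. Leaving out single libraries gave 6 to 14, the 14 without LPS replicate 2, and 3239 to 5776 of all genes (4941 as reported), the 3239 without Control replicate 1. The mean summed FPKM of the carriers became 873 in LPS+EVs, 845 in LPS and 1119 in Control with median-of-ratios scaling, against 824, 799.9 and 1239.8 FPKM as deposited. Slc25a5, Slc25a3, Slc25a13 and Slc25a37 kept their calls against Control under all 17 alternatives in both comparisons. No called carrier changed direction. The replicate block changed no call between LPS+EVs and LPS. The cause of these shifts was not tested. The 13 carriers that were not tested did not reach 1 FPKM in 3 libraries. Depth limits those among them with fewer than 10 reads in a library. Slc25a26, with a length of 8740 bases, had 259 to 349 reads in Control and 21 to 109 in LPS+EVs. In LPS it had 9 to 168 reads, so this limit holds for its LPS replicate 2.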

Other observations

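In the libraries numbered 2, 48.4% of the 31 tested carriers were lowest of their group in LPS+EVs, 45.2% in LPS and 45.2% in Control, near the 50.8%, 54.2% and 41.4% of all genes that were. The carriers highest of their group there made up 32.3% in LPS+EVs, 45.2% in LPS and 29% in Control, where 26.7%, 31.5% and 35.5% of all genes did. Slc25a44, the branched-chain amino acid carrier, had 5.23 FPKM in LPS+EVs replicate 2, 4.63 FPKM in LPS replicate 2 and 10.6 FPKM in Control replicate 2, and between 9.56 and 15.1 FPKM in the other libraries. Slc25a45 stood at 5.8 FPKM in Control replicate 2 and at 0.717 to 1.85 FPKM in all other libraries. Slc25a13 relative to Slc25a12 was 0.513 in LPS+EVs replicate 2 and 0.522 in LPS replicate 2, and between 1.08 and 2.56 in the other 7 libraries. These values were picked after they were seen and carry no test.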
